A study of Mus musculus with 6 samples.

Results

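The inflammatory and regulatory cytokines examined were *Il1b*, *Il1rn*, *Tnf*, *Il6*, *Il10*, *Il15*, *Il18*, *Il33*, *Tgfb1* and *Ifng*. The members were taken by gene symbol, and all 10 of the 10 listed symbols were found, in a table of 61880 rows that form 53912 assembled loci. The level of a gene is given as the sum of all rows of its locus, 15 rows in all, because the assembly placed part of the reads of some genes in rows with no symbol. RNA was measured by bulk RNA-Seq in isolated mammary epithelial cells of pubertal FVB/NJ female mice aged 6 to 8 weeks, in 3 *fat-1* samples and 3 wild-type (WT) samples. Mice lack an enzyme that turns *n*-6 into *n*-3 polyunsaturated fatty acids (PUFA), and the *fat-1* mice carry one from a nematode, active throughout the body and so not limited to mammary epithelium. Both genotypes were kept for life on the parental AIN93G-type diet with 10% fat by weight (22% of energy) from safflower oil, which is rich in the *n*-6 PUFA linoleic acid. Each sample pooled inguinal glands of several mice, so that the spread between samples is a spread between pools, and no sex, age or diet differed between the genotypes in the labels. The comparison asks whether lifelong exposure to *n*-3 PUFA goes with a different level of these messages.

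Cytokines are small secreted or membrane-bound proteins that carry signals between immune, stromal and epithelial cells. Interleukin-1 beta and tumor necrosis factor start inflammatory signaling through NF-κB, interleukin-6 signals through JAK and STAT3, and interferon gamma, made mainly by T and NK cells, activates macrophages. Interleukin-15 maintains NK cells and memory T cells, and interleukin-18 and interleukin-33 belong to the interleukin-1 family, the latter being an alarmin held in the nucleus of stromal and epithelial cells. The interleukin-1 receptor antagonist encoded by *Il1rn*, interleukin-10 and transforming growth factor beta 1 restrain inflammation, and the last of these also limits growth of the mammary ducts.

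On the GRCm38 build, with the GENCODE annotation, all members are protein-coding genes. *Il6* lies at chr5:30013114-30019981, *Il1b* at chr2:129364570-129371139 and *Il1rn*, on the same chromosome, at chr2:24336853-24351494. *Tnf* lies at chr17:35199381-35202007, *Ifng* at chr10:118441046-118445892 and *Il10* at chr1:131019845-131024974. *Il15* lies at chr8:82331632-82403222, *Il18* at chr9:50554827-50581840, *Il33* at chr19:29925114-29960718 and *Tgfb1* at chr7:25687002-25705077. *Il1b* is overlapped on the opposite strand by the antisense gene *Il1bos*, which had a locus of its own, and *Il18* by *Bco2* and *Tex12*, and whether strand was used in counting is not given in the sources used here, so reads of these overlaps cannot be told apart. The *Ifng* locus also held a row of *Gm49751*, a provisional gene model on the same strand, with 7 to 17 counts in a sample against 129 to 1340 in the row named *Ifng*.

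The 250 bases before the first start site listed by RefSeq (GRCm38.p6) are printed for members that rose and fell together across the samples, *Il6*, *Il33* and *Il1rn* as one group, with r of 0.869 to 0.944 between them on log2(CPM + 1), and *Il18*, *Il1b* and *Tgfb1*, with r of 0.760 to 0.974, as another. The groups are not separate, since *Il18* had r of 0.835 with *Il1rn* and 0.777 with *Il33*, above its 0.760 with *Il1b*. RefSeq promoters were matched for 8 of the 10 members. None was matched for *Il10*, which had r of 0.906 with *Il18*, 0.949 with *Il1b* and 0.973 with *Tgfb1*. Each sequence is read 5′ to 3′ on the strand of its gene, and capitals mark matches, on either strand, to 4 short motifs, GGGNNNNNCC for NF-κB, TGANTCA for AP-1, TTGNGCAA for C/EBP and TATAAA for the TATA box.
*Il6*, chr5:30012864-30013113, + strand: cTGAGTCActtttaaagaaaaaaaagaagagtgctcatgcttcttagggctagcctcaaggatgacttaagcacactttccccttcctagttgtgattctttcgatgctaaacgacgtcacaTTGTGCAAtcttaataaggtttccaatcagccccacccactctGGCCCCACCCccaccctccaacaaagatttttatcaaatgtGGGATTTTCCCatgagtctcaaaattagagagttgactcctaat
*Il33*, chr19:29924863-29925112, + strand: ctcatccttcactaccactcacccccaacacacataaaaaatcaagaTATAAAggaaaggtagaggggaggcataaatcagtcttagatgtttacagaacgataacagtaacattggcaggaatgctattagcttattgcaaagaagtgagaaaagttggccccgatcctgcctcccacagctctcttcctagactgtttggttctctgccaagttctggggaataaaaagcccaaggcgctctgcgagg
*Il1rn*, chr2:24336610-24336859, + strand: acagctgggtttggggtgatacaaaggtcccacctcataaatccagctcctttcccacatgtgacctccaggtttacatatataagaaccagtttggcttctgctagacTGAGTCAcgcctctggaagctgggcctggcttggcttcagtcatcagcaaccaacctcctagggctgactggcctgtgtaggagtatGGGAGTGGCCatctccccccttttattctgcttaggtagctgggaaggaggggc
*Il18*, chr9:50554450-50554699, + strand: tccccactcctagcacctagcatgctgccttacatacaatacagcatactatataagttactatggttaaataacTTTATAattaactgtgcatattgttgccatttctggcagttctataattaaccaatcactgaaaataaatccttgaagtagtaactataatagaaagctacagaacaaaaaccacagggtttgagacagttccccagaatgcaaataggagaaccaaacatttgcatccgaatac
*Il1b*, chr2:129371140-129371389, - strand: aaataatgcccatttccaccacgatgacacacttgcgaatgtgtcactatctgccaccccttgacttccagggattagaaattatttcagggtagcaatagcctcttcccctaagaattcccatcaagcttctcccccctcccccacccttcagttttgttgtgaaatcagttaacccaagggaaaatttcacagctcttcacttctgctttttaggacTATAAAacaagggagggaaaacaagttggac
*Tgfb1*, chr7:25686752-25687001, + strand: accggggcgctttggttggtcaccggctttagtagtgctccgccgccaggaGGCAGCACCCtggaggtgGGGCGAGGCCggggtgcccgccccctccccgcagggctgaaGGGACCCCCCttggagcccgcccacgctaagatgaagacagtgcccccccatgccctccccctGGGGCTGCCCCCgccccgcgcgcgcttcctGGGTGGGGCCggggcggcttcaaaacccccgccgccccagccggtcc
The *Il6* promoter held matches to the NF-κB, AP-1 and C/EBP letters, with a pair of overlapping NF-κB matches on opposite strands in its longest run of capitals. The *Tgfb1* promoter held 7 NF-κB matches, some of them overlapping, in GC-rich sequence, and no TATA box match. The promoter of *Il1b* held 1 TATA box match, 31 bases before the start, and the printed promoters of *Il33* and *Il18* held 1 each farther upstream. The second start site that RefSeq lists for *Il33*, not printed here, had a TATA box match 29 bases before it. The first promoter of *Il1rn* held 1 NF-κB and 1 AP-1 match. Of 32851 mouse promoters of the same length, 45.8% held the NF-κB letters, 6.75% the AP-1 letters, 2.61% the C/EBP letters and 12.4% the TATA box letters, so the NF-κB letters are common in such windows. A match is a description of letters only, and no factor binding was measured.

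The counts of a sample summed to between 204539059 and 232148824, and the rarest member, *Il10*, still had 130 to 363 counts, so that the 3 samples of each genotype rather than depth limit the precision. Cell type marker RNA differed between samples within each genotype. *Krt8*, a luminal keratin, ranged from 210 to 899 CPM (counts scaled to a common library size, after TMM), *Epcam* from 197 to 787 CPM and the basal keratin *Krt5* from 32.2 to 180 CPM, each highest in fat-1 1 and next highest in WT 1. The other luminal and basal markers were divided. Some, such as *Krt18* and *Krt14*, were also highest in fat-1 1, others, such as *Elf5* and *Trp63*, in WT 1, and *Areg* in WT 2. The mean log2(CPM + 1) over all luminal and basal markers was 6.15 in fat-1 1 and 6.21 in WT 1. *Ptprc*, the common leukocyte antigen CD45, ranged from 157 to 407 CPM and was highest in fat-1 2 and WT 3. The 5 pan-leukocyte markers had a summed level of 617 to 1390 CPM (*fat-1*) and 617 to 1429 CPM (WT), and the 8 fibroblast markers of 2098 to 8535 CPM (*fat-1*) and 4591 to 7907 CPM (WT). In summed CPM over markers with a locus free of other protein-coding genes, 5 of 7 B cell markers reached 224 to 609 (*fat-1*) and 255 to 648 (WT), and 10 of 11 T and NK cell markers 146 to 281 and 125 to 292. Macrophage markers were low, with 9 of 10 of them summing to 95.8 to 144 CPM in any sample and *Adgre1*, which encodes F4/80, at 1.45 to 4.04 CPM. Per kilobase, the highest markers were *Krt18* for luminal cells (193 to 908 CPM), *Krt5* for basal cells, *Dcn* for fibroblasts (898 to 2080 CPM), *Cd53* for leukocytes (124 to 266 CPM) and *Ccr7* for dendritic cells (111 to 272 CPM). On the other lists they were *Trbc2* for T cells (45.7 to 104 CPM, in a locus with *Trbc1* and joining segments), *S100a9* for neutrophils (9.09 to 25.6 CPM), *Mcpt4* for mast cells (5.79 to 23.3 CPM) and *Cdh5* for endothelium (72.8 to 101 CPM). *Cd79a* and *Cd68*, the highest on the B cell and macrophage lists, share a locus with *Arhgef1* and *Eif4a1*, so their sums are not given. None of the luminal, basal, leukocyte, fibroblast or macrophage markers was at 0 in any sample. The samples labelled as epithelial cells therefore contained leukocyte and fibroblast RNA in both genotypes, and fewer cells of a type cannot be told apart from less RNA per cell in bulk samples.

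No difference between the genotypes was called for any of the 10 cytokines. With the quasi-likelihood test of edgeR on locus sums, 0 of 10 members passed an adjusted *p*-value of 0.05, and 0 passed the unadjusted threshold, beside 0 (0.00%) and 274 (1.14%) of the 24061 loci tested. The exact test of edgeR and DESeq2 also gave 0 members at either threshold. Of the 24061 loci, these tests gave 257 and 359 at the unadjusted threshold and 6 and 8 at the adjusted one. The smallest unadjusted *p*-value of a member was 0.167, for *Tnf*, and the adjusted *p*-values of all members were 1.00. The log2 fold change (*fat-1* over WT) was above 0 for 5 members and below 0 for 5, with a median of 0.00099 against 0.0018 over all loci tested. The *fat-1* and WT values overlapped for every member, whereas they did not overlap for 4.15% of the loci tested. All 10 members passed the filter on low counts, so none was left out of the comparison.

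**Figure D1:**
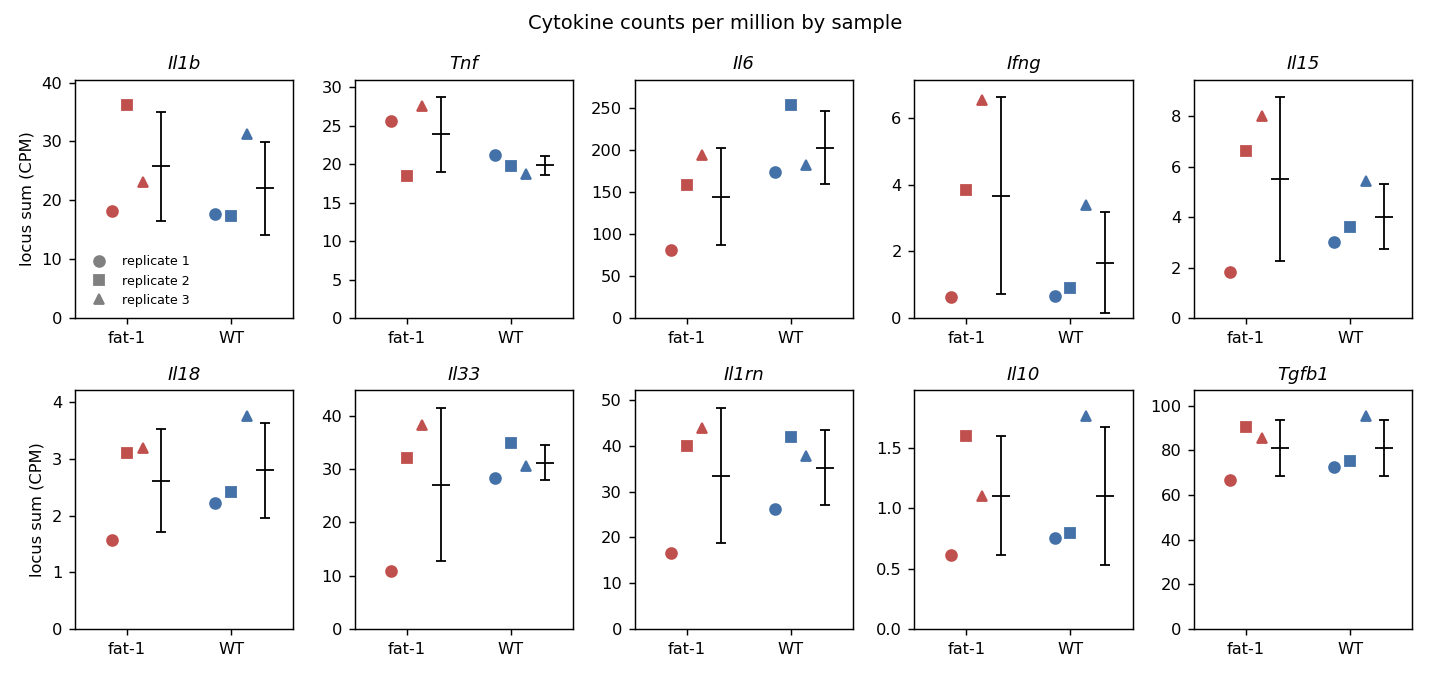
Locus sum of each cytokine in CPM (vertical axis, linear, from 0) in the 3 *fat-1* and 3 WT samples, with the replicate shown by the symbol and the mean and SD of each genotype beside the points. The points of the genotypes overlap in all 10 panels, and fat-1 1 is the lowest sample in 8 of them.

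Among the effector cytokines, *Il6* was the most abundant. For replicates 1 to 3 in turn, its level was 81.0, 158 and 194 CPM in *fat-1* and 173, 253 and 182 CPM in WT, and values are given in this order throughout. The mean was 144 ± 57.7 CPM in *fat-1* and 203 ± 43.8 CPM in WT (SD, n = 3). The lowest value was in fat-1 1 and the highest in WT 2, and fat-1 3 lay above 2 of the 3 WT samples. The log2 fold change was -0.49 with a standard error of 0.33, and its 95% interval ran from -1.28 to 0.30 (unadjusted *p* = 0.182, edgeR). The interval includes a level in *fat-1* samples lower than that of WT by more than 1 on the log2 scale, and also a small difference the other way.

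*Il1b*, the secreted interleukin-1 of myeloid cells, was at 18.2, 36.1 and 23.0 CPM in *fat-1* and at 17.6, 17.3 and 31.2 CPM in WT. One sample of each genotype stood above the others, fat-1 2 and WT 3, the same samples that had the most *Ptprc*. The means were 25.8 ± 9.29 and 22.0 ± 7.94 CPM (SD, n = 3), and the log2 fold change was 0.23 ± 0.34 (SE). *Tnf* was at 25.7, 18.4 and 27.5 CPM in *fat-1* and at 21.2, 19.7 and 18.7 CPM in WT. The WT values were close together, with a mean of 19.9 ± 1.27 CPM (SD, n = 3), and the *fat-1* values lay on both sides of them. The log2 fold change of *Tnf* was 0.26, with a 95% interval from -0.15 to 0.67, and was the narrowest but for that of *Tgfb1*.

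*Ifng* varied most between samples. It was at 0.645, 3.85 and 6.52 CPM in *fat-1* and at 0.678, 0.918 and 3.40 CPM in WT, a 10.1-fold range over the 6 samples. The values of fat-1 1 and of WT 1 and 2 were all under 1 CPM, and the remaining 3 samples were above 3 CPM. The log2 fold change of 1.14 was the largest in size of any member, and its 95% interval, from -1.07 to 3.35, was also the widest.

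The cytokines of tissue and epithelial cells gave the same picture. *Il33* was at 10.8, 32.1 and 38.3 CPM in *fat-1* and at 28.3, 34.9 and 30.5 CPM in WT, with fat-1 1 apart from the other samples, which lay close together. The means were 27.1 ± 14.4 and 31.2 ± 3.36 CPM (SD, n = 3), and the log2 fold change was -0.21 ± 0.43 (SE). *Il15* was at 1.83, 6.63 and 8.01 CPM in *fat-1* and at 3.0, 3.62 and 5.44 CPM in WT. The WT values lay within the range of the *fat-1* values, and the log2 fold change was 0.45 with a 95% interval from -0.84 to 1.74. *Il18* was low in all samples, at 1.57, 3.09 and 3.19 CPM in *fat-1* and 2.22, 2.41 and 3.76 CPM in WT, and its log2 fold change was -0.094 ± 0.34 (SE).

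The inhibitory and regulatory members were at nearly equal mean levels in the genotypes. *Tgfb1* was at 66.8, 90.3 and 85.7 CPM in *fat-1* and at 72.3, 75.2 and 95.3 CPM in WT, and the means were 80.9 ± 12.4 and 81.0 ± 12.5 CPM (SD, n = 3). It was the steadiest member, with a 1.43-fold range over the 6 samples, and the 95% interval of its log2 fold change ran from -0.39 to 0.39. *Il10* was at 0.616, 1.6 and 1.10 CPM in *fat-1* and at 0.753, 0.799 and 1.77 CPM in WT. Its log2 fold change was 0.0031 ± 0.47 (SE), and an interval from -1.13 to 1.14 includes differences of more than 1 on the log2 scale in either direction. *Il1rn* was at 16.6, 39.9 and 44.0 CPM in *fat-1* and at 26.1, 41.9 and 37.8 CPM in WT, again lowest in fat-1 1, with a log2 fold change of -0.074 ± 0.38 (SE).

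The exact permutation test of the genotypes on each member alone, two-sided on log2(CPM + 1), gave *p*-values between 0.3 (*Il6*) and 1.0 (*Il10* and *Tgfb1*), where 3 samples against 3 cannot go under 0.1. Of the 10 members, 8 were lowest in fat-1 1, the sample with the most *Krt8* RNA, beside 25.2% of all loci tested, and 5 were highest in fat-1 3, beside 11.4% of all loci. WT 1, whose mean luminal and basal marker level was slightly above that of fat-1 1, was lowest for 0 members, beside 13.6% of all loci. Without fat-1 1, the log2 fold change of *Il15* was 0.87 with an unadjusted *p*-value of 0.022 and an adjusted *p*-value of 1.00 (edgeR), in a fit where 1.96% of loci passed the unadjusted threshold. Without fat-1 2, *Tnf* had an unadjusted *p*-value of 0.017 and an adjusted *p*-value of 1.00, beside 1.18% of loci at the unadjusted threshold. Without the pair of samples with the most epithelial RNA, fat-1 1 and WT 1, a choice made after the data were seen, 0 members passed the adjusted and 1, *Il15*, the unadjusted threshold, beside 1.51% of the loci tested. With the pan-leukocyte level as a covariate, 0 members passed either threshold, beside 2.28% of loci at the unadjusted one.

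**Figure D2:**
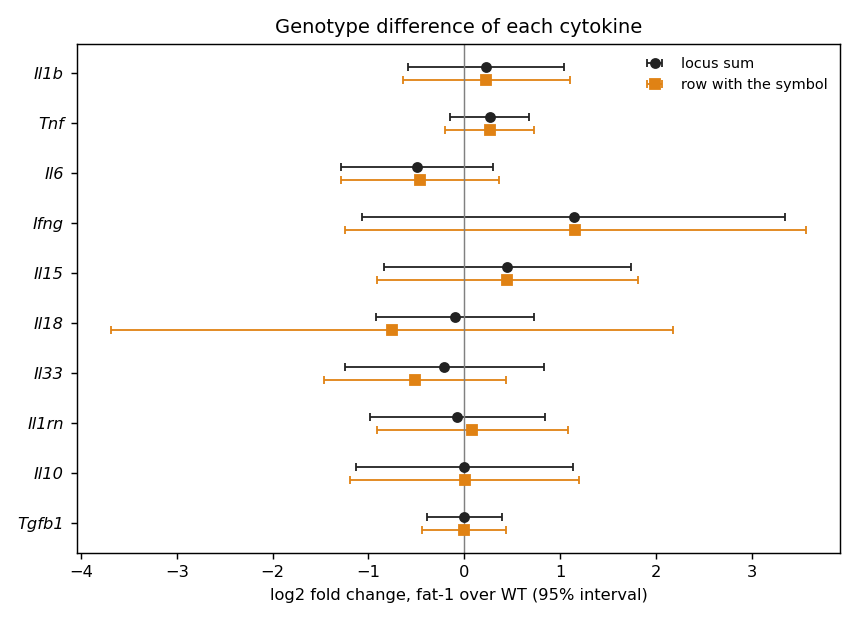
Log2 fold change, *fat-1* over WT, of each cytokine (horizontal axis) with its 95% interval, from locus sums (circles) and from the rows that carry the symbol (squares). Every interval includes 0, and the widest are those of *Ifng* and of the *Il18* row.

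The row that carries a gene's symbol did not always hold its reads, and how much it held changed from sample to sample. The loci of 5 members had more than 1 row. For *Il33*, the row with the symbol held 98.8 to 100% of the counts of the locus in 5 samples and 57.9% in fat-1 3, where 3353 of 7962 counts stood in a row without a symbol. For *Il1rn* it held all counts in WT 2 and in every *fat-1* sample, 97.2% in WT 1 and 72.9% in WT 3. The row named *Il18* held 33.2%, 16.1% and 0.0% of its locus in *fat-1* and 9.26%, 31.7% and 20.2% in WT, so that fat-1 3 was at 0 in that row and at 663 counts in the locus. For *Il6* the share was steady, between 83.3% and 88.2%. An exact permutation test of the shares between the genotypes gave *p* between 0.2 and 0.8, all adjusted to 0.8 over the 5 loci. With 3 samples against 3 this test cannot go under 0.1, so it could not call a difference at 0.05. The choice between row and locus moved the values of single members. The log2 fold change of *Il33* was -0.52 ± 0.39 (SE) from the row with the symbol, and that of *Il18* was -0.75 ± 1.19. That of *Il1rn* was 0.085 from the row and -0.074 from the locus. No member passed either threshold from the rows, beside 678 (2.21%) of 30683 rows tested at the unadjusted and 0 (0.00%) at the adjusted threshold.

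**Figure D3:**
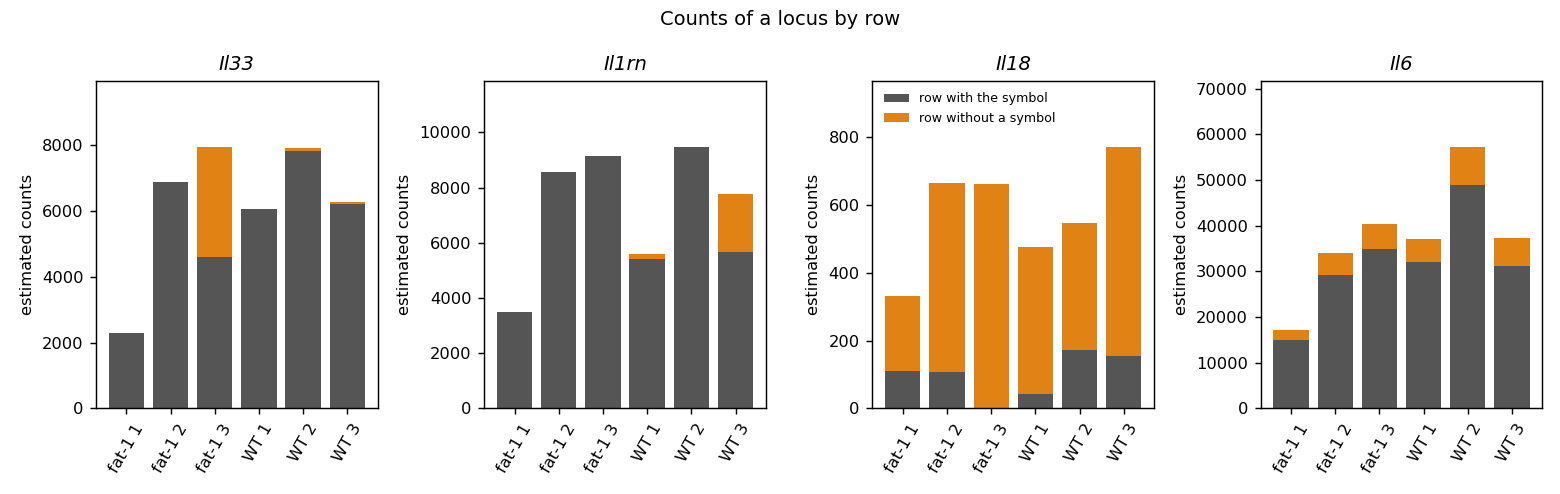
Estimated counts (vertical axis, linear, from 0) of 4 cytokine loci in each sample, divided into the row with the symbol and the row without one. The row without a symbol is large for *Il33* in fat-1 3, for *Il1rn* in WT 3 and for *Il18* in all samples.

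Levels of different genes were compared per kilobase of merged annotated exons, as CPM per kilobase. *Il6* was first, with 71.5 ± 23.0 CPM per kilobase (SD, n = 6), and was above *Tgfb1*, at 16.1 ± 2.22, in 6 of 6 samples. *Tnf* followed at 13.3 ± 2.34, *Il1b* at 12.5 ± 4.19 and *Il33* at 10.1 ± 3.33 CPM per kilobase, and these neighbours were not separated beyond their spread, since *Tnf* was above *Il1b* in 4 of 6 samples and *Il1b* above *Il33* in 3 of 6. By this length *Il33* was above *Il1rn*, at 6.21 ± 1.94, and *Il1rn* above *Il18*, at 2.62 ± 0.764, in 6 of 6 samples. *Il15*, at 2.10 ± 1.04, and *Ifng*, at 2.06 ± 1.82, exchanged places between samples, with *Il15* higher in 3 of 6, and *Il10* was last at 0.844 ± 0.364 CPM per kilobase. The order depends on the length used, since the merged exons of *Il1rn*, *Tgfb1* and *Il1b* are longer than their longest transcripts. With the longest transcript *Il6* was still first at 74.1 and *Tgfb1* next at 31.5 CPM per kilobase, but *Il1b*, at 17.6, and *Il1rn*, at 13.5, then stood above *Tnf*, at 13.3, and *Il33*, at 11.5. *Il1rn* was above *Tnf* in 4 of 6 samples by that length and *Tnf* above *Il33* in 3 of 6.

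**Figure D4:**
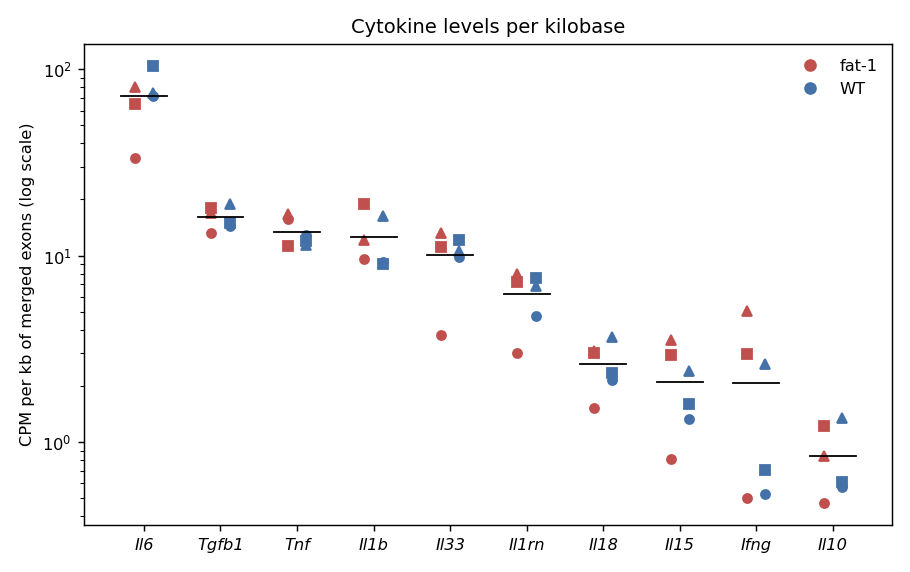
Level of each cytokine in CPM per kilobase of merged exons (vertical axis, log scale), ordered by the mean of the 6 samples, which is drawn as a line. Circles, squares and triangles are replicates 1, 2 and 3, and *Il6* lies above every other member in each sample.

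The members were set against cell type markers across the 6 samples. The pan-leukocyte level, the mean log2(CPM + 1) of *Ptprc*, *Coro1a*, *Laptm5*, *Cd52* and *Cd53*, was 6.6, 7.82 and 7.34 in *fat-1* and 6.62, 6.81 and 7.91 in WT. *Il10* followed it with Pearson's r of 0.989 (exact permutation *p* = 0.00139, the smallest that 6 samples can give, adjusted *p* = 0.0417 over 30 relations) and Spearman's rho of 1.0 (*p* = 0.00278, adjusted *p* = 0.0417, exact). *Tgfb1* followed it with r of 0.973 (exact permutation *p* = 0.00278, adjusted *p* = 0.0417) and rho of 1.0 (*p* = 0.00278, adjusted *p* = 0.0417). After the samples farthest from the median, WT 3 and fat-1 2, were left out, r was 0.960 for *Il10* and 0.95 for *Tgfb1*. With the rows that carry the symbol in place of locus sums, for members and markers alike, r with this level was 0.817 for *Il10* and 0.887 for *Tgfb1* (exact permutation *p* = 0.0514 and 0.0181), and neither passed after adjustment. *Il1b* had r of 0.959 and rho of 0.714, with exact permutation *p*-values of 0.0167 and 0.136, and did not pass the adjusted threshold for either (adjusted *p* = 0.0602 and 0.227). *Il18*, with r of 0.896, and *Ifng* and *Il15*, with r of 0.818 and 0.804, also missed it (adjusted *p* = 0.0667, 0.175 and 0.167, exact permutation).

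The mean level of the luminal and basal markers ran almost opposite to the pan-leukocyte level, with r of -0.957 between them, so that the relations to these levels are not separate observations. *Il10* had r of -0.952 with the epithelial level (exact permutation *p* = 0.00694, adjusted *p* = 0.0417) and rho of -0.886 (*p* = 0.0333, adjusted *p* = 0.125), and r of -0.765 without the samples farthest from the median. With a pseudocount of 0.1 CPM its *p*-value was 0.00833 (exact permutation), which did not pass after adjustment. From the rows with the symbol, *Il10* and *Tgfb1* had r of -0.960 and -0.946 with the epithelial level (exact permutation *p* = 0.00278 and 0.00417), and both passed. The other members except *Tnf* also had a negative r, between -0.343 (*Il6*) and -0.922 (*Tgfb1*), and *Tnf* had r of 0.609. *Tnf* was the only member with a negative r to the pan-leukocyte level, -0.444, and neither value passed a threshold (exact permutation *p* = 0.196 and 0.351, adjusted *p* = 0.280 and 0.458). Both signs of *Tnf* changed without WT 3 and fat-1 2, to r of 0.535 with the pan-leukocyte level and -0.066 with the epithelial level. Whether any cytokine is made by the cells whose markers it followed was not tested.

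*Il6*, *Il33* and *Il1rn* were the members with the highest r to the level of 8 fibroblast markers (*Col1a1*, *Col1a2*, *Col3a1*, *Dcn*, *Lum*, *Pdgfra*, *Pdgfrb* and *Fn1*), a relation added after the data were seen. Whether their r with this level exceeded that with the pan-leukocyte level, 0.260 for *Il6*, 0.485 for *Il33* and 0.630 for *Il1rn*, was not tested. The fibroblast level was 7.23, 8.62 and 9.39 in *fat-1* and 8.45, 9.29 and 8.92 in WT. *Il33* had r of 0.958 and rho of 0.943 with it (exact permutation *p* = 0.00556 and 0.0167, adjusted *p* = 0.0417 and 0.10). *Il1rn* had r of 0.95 and rho of 0.943 (exact permutation *p* = 0.00417 and 0.0167, adjusted *p* = 0.0417 and 0.10). *Il6* had r of 0.948 and rho of 0.886 (exact permutation *p* = 0.0125 and 0.0333, adjusted *p* = 0.0595 and 0.125) and did not pass. Without fat-1 1 and fat-1 3, whose fibroblast levels lay farthest from the median, r was 0.832 for *Il33*, 0.728 for *Il1rn* and 0.888 for *Il6*, and fat-1 1 had the lowest value on both axes. Of the 30 relations, 5 passed the adjusted threshold by r and 2 by rho. For the other members r with the fibroblast level was 0.756 (*Il15*), 0.745 (*Il18*), 0.606 (*Tgfb1*), 0.567 (*Ifng*), 0.433 (*Il10*), 0.216 (*Il1b*) and -0.231 (*Tnf*), none of which passed. The relations to the fibroblast level are given from locus sums only. In fat-1 3, which had the highest fibroblast level, *Il33* was at 22.1 CPM in the row with the symbol and 38.3 CPM in the locus. In WT 3, *Il1rn* was at 27.5 CPM in that row and 37.8 CPM in the locus.

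**Figure D5:**
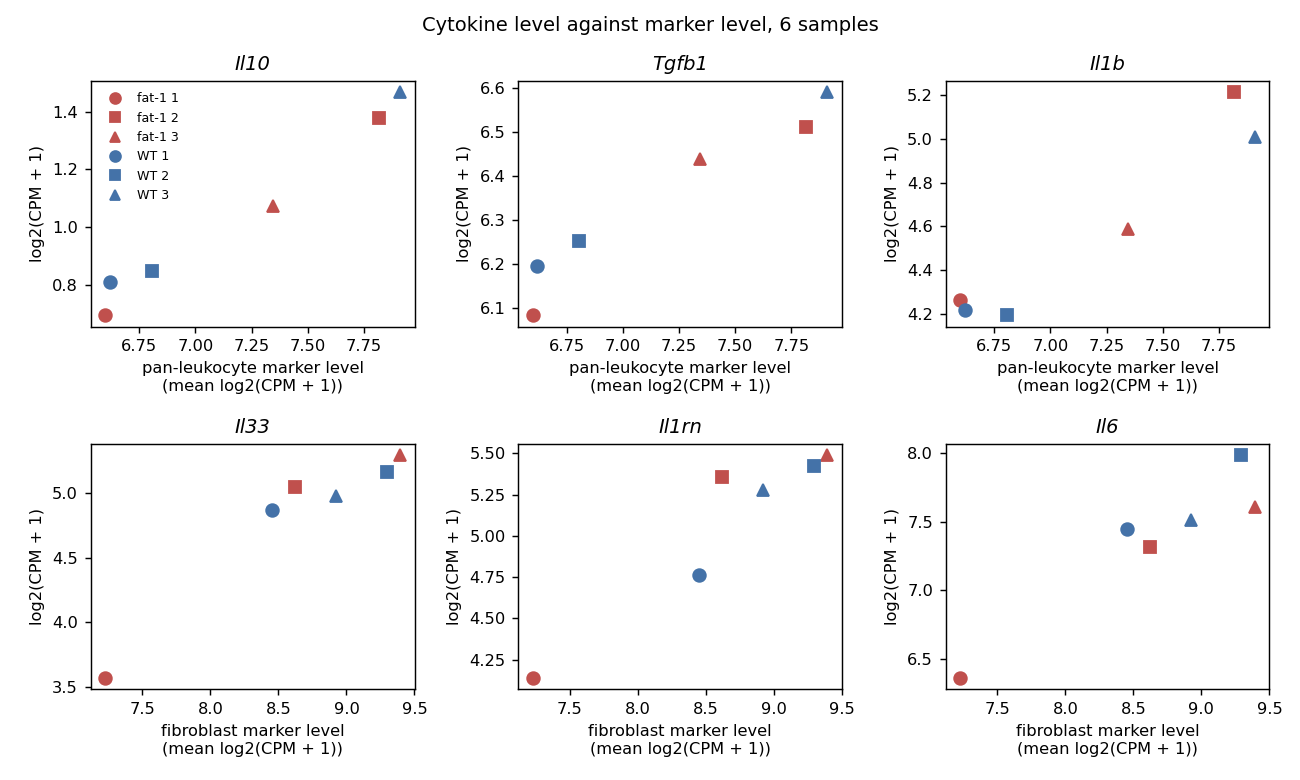
Level of 6 cytokines, as log2(CPM + 1), against the mean log2(CPM + 1) of the pan-leukocyte markers (upper row) or the fibroblast markers (lower row), with 1 point for each of the 6 samples. The upper panels order the samples from fat-1 1 and WT 1 and 2 up to fat-1 2 and WT 3, and in the lower panels fat-1 1 lies apart at the low end.

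The loci whose levels were most like those of each member, by Pearson's r of log2(CPM + 1) over the same 6 samples among 12612 loci with a gene symbol and a mean of at least 1 CPM, are given as a description. For *Il6* these were *Rtl8b* (0.996), *Rtl8a* (0.995) and *Sirt2* (0.995), for *Il33* *Ptx3* (0.994), *Bdh2* (0.994) and *Kcp* (0.993), and for *Il1rn* *Art3* (0.999), the joint locus of *Dtwd1* and *Fgf7* (0.998) and *Emp3* (0.998). *Ptx3*, a long pentraxin of the innate immune response, ranged like *Il33* from its lowest value, 62.4 CPM, in fat-1 1 to its highest, 274 CPM, in fat-1 3. For *Il10* they were *Serpini1*, *Ighv5-17* and *Fam117a* (0.999 each), for *Tgfb1* *Rab19* (0.999), *Igkv13-84* (0.999) and *Tspyl3* (0.997), and for *Ifng* *Igkv8-27* (0.993), *Appl1* (0.992) and *Lrch1* (0.988). *Ighv5-17*, *Igkv13-84* and *Igkv8-27* are immunoglobulin variable gene segments, whose transcripts come from B lineage cells. For *Il1b* they were *Zfp831*, the joint locus of *Gigyf1* and *Gm8066*, and *Pcgf5* (0.996 to 0.999). For *Il15* they included *Zfpm1* (0.9885, in a joint locus with *Gm45353*) and *Nfkbiz*, an NF-κB cofactor gene (0.987), and for *Il18* they were *Cdca5*, *Adap1* and *Phgdh* (0.995 to 0.999). The nearest locus to *Tnf* was *Rela*, which encodes the NF-κB subunit p65, with r of 0.983 and a range of 172 to 196 CPM, followed by *Bok* (0.980) and *Zbtb17* (0.974). *Tnf* had only 9 loci with r of at least 0.95, while *Il10* had 727 and *Tgfb1* 698. The other members had between 64 (*Ifng*) and 454 (*Il1b*), so that for members other than *Tnf* a close neighbour was not rare. Whether these numbers go with the relation of a member to the cell type markers was not tested.

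The receptors and soluble antagonists of the members were all detected, with a median log2 fold change of 0.028. Of these 21 genes, 0 passed either threshold between the genotypes, beside 1.14% of all loci tested at the unadjusted one. *Il1rl1*, which encodes the interleukin-33 receptor ST2 and its soluble form, was by far the highest per kilobase, at 829, 2707 and 3000 CPM in *fat-1* and 1708, 3204 and 2652 CPM in WT. It was lowest in fat-1 1, as was *Il33*, and its log2 fold change was -0.21 ± 0.48 (SE). *Il1r1*, the signaling interleukin-1 receptor, ranged from 79.9 to 167 CPM, the decoy receptor *Il1r2* from 4.74 to 10.9 CPM and the shared accessory chain *Il1rap* from 9.42 to 13.4 CPM. For tumor necrosis factor, *Tnfrsf1a* ranged from 125 to 173 CPM and *Tnfrsf1b* from 88.1 to 140 CPM. For interleukin-6, the signaling chain *Il6st* ranged only from 370 to 450 CPM and the ligand-binding chain *Il6ra* from 18.6 to 29.3 CPM. The interferon gamma receptor chains *Ifngr1* (123 to 161 CPM) and *Ifngr2* (46.2 to 60.4 CPM) and the TGF-β receptors *Tgfbr1* (43.6 to 54.2 CPM), *Tgfbr2* (174 to 250 CPM) and *Tgfbr3* (38.8 to 72.4 CPM) were all detected as well. *Il10ra* ranged from 22.1 to 61.9 CPM, *Il15ra* from 23.7 to 97.0 CPM, *Il18r1* from 23.6 to 32.9 CPM and *Il18rap* from 6.89 to 14.9 CPM. *Il10rb* (with *Ifnar2*), *Il2rb* (with *C1qtnf6*), *Il2rg* (with *Gm614*) and *Il18bp* (with *Rnf121*) share an assembled locus with the named gene, so their sums, 70.7 to 98.8, 38.5 to 99.5, 82.6 to 198 and 51.3 to 63.4 CPM, cover both.

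Genes that process or release the cytokines, and those that carry or end their signals, also gave no adjusted call. Of 19 processing and release genes, 1 passed the unadjusted threshold and 0 the adjusted one, beside 1.14% and 0.00% of all loci tested. This gene, *Ltbp2*, is a member of the latent TGF-β binding protein family, and it was at 22.0, 13.2 and 14.8 CPM in *fat-1* and 11.4, 10.1 and 10.7 CPM in WT. The values of the genotypes did not overlap, as for 4.15% of the loci tested. The log2 fold change was 0.64 ± 0.21 (SE), with an unadjusted *p*-value of 0.021 and an adjusted *p*-value of 1.00 (edgeR). *Thbs1*, an activator of latent TGF-β, was the highest of these genes per kilobase, at 332 to 1006 CPM. *Casp1*, the protease that cleaves the precursors of interleukin-1 beta and interleukin-18, had a log2 fold change of 0.13 ± 0.23 (SE). Of 18 signal transducers and 14 feedback inhibitors, 0 passed either threshold. Their medians of the log2 fold change were 0.043 and 0.043, and the highest per kilobase were *Jak1*, at 445 to 610 CPM, and *Nfkbia*, the NF-κB inhibitor, at 264 to 324 CPM.

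Of 32 other cytokine genes, 1 passed the unadjusted threshold and 0 the adjusted one, beside 1.14% and 0.00% of all loci tested. *Il12b*, which encodes a subunit shared by interleukin-12 and interleukin-23, was at 0.872, 1.48 and 1.18 CPM in *fat-1* and 0.706, 0.653 and 0.842 CPM in WT, with a log2 fold change of 0.69 ± 0.25 (SE). Its unadjusted *p*-value was 0.032 and its adjusted *p*-value 1.00 (edgeR), and the genotypes did not overlap, as for 4.15% of the loci tested. *Csf1*, the macrophage colony-stimulating factor gene, was the highest of these per kilobase, at 629 to 1296 CPM. *Il2* and *Il36a* were at 0 in at least 1 sample, where 3 counts, the limit that a count of 0 allows, correspond to about 0.014 CPM. On all the marker lists together, of 5 to 13 genes each, 1 gene passed the unadjusted threshold, beside 1.14% of all loci tested. This gene was on the list of 7 adipocyte markers. It was the fatty acid binding protein gene *Fabp4*, at 83.2 to 106 CPM in *fat-1* and 112 to 126 CPM in WT (log2 fold change -0.31, unadjusted *p* = 0.037, adjusted *p* = 1.00, edgeR). *Adipoq*, which defines adipocytes, was at 0.256 to 0.500 CPM in all samples. The genes induced by cell isolation had a median log2 fold change of -0.055 over 12 genes, and 0 of them passed either threshold. The highest of them per kilobase was *Hspa1b*, whose locus it shares with *Hspa1a*.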

How the data were processed

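RNA was extracted from pooled mammary epithelial cells, 3 *fat-1* and 3 WT samples, after overnight collagenase and hyaluronidase digestion. The authors mapped paired-end reads to GRCm38 with HISAT2 and quantified transcripts with StringTie, and the deposited table holds unnormalized estimated counts that are all whole, so that no rounding was needed. The step from StringTie coverage to counts, the annotation and the use of strand are not given in the sources used here. Columns were matched to samples by name, and 0 were left without a sample.

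Rows of a locus were summed. For differences, edgeR 4.0.16 in R 4.3.3 was used with its quasi-likelihood fit (filterByExpr, TMM, genotype only, Benjamini–Hochberg over all features, threshold 0.05), and DESeq2 1.42.0 and edgeR's exact test were alternatives. Standard errors were taken as the fold change on the log2 scale over the square root of F. The fits were tested on simulated data with the dispersion of these data. At the adjusted threshold the quasi-likelihood test called 6 of 86 loci changed 2-fold and 66 of 110 changed 4-fold. The exact test called 31 and DESeq2 35 of the 86. Of 23237 unchanged loci, 6, 61 and 71 were called by the quasi-likelihood test, the exact test and DESeq2. Exact permutation tests and correlations used log2(CPM + 1) in Python 3.11.15, and intervals are at 95%. Sequences and gene lengths are from RefSeq (GRCm38.p6) and GENCODE. The *p*-values of the fits set the genotype difference against the spread between pools, and the exact permutation *p*-values come from rearranging the pooled samples. Named genes are all members, the receptors, the genes of each pathway or marker list with an unadjusted *p*-value under 0.05, the most abundant gene of a list per kilobase, *Ptprc*, *Epcam*, *Krt8* and *Krt5*, genes in a shared locus, and the 3 loci nearest to each member, of which 1 is not reported here. *Casp1*, *Adgre1*, *Adipoq*, *Il2* and *Il36a* were named after their values were seen. The members and lists were chosen with earlier results of these data known. No replicates were identical.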

Additional observations from a re-analysis of the deposited data

How the results depend on the processing

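No member passed the adjusted threshold under any of the 17 alternatives tried for each. The number of loci past the adjusted threshold was 0, and became 6 with edgeR's exact test and 8 with DESeq2, and that of rows 0, 32 and 93. Leaving out each sample gave 0 to 1 loci (1 without WT 1) and 0 to 2 rows (1 without fat-1 1, 1 without fat-1 2 and 2 without WT 1). The number of loci at the unadjusted threshold, 274, became 579 without the filter and 549 with the leukocyte covariate, and 204 to 542 on leaving out a sample, and that of rows, 678, became 1136 and 1023. Directions of *Tnf*, *Il6*, *Ifng* and *Il15* were the same throughout, with log2 fold changes on leaving out a sample of 0.15 to 0.42, -0.76 to -0.20, 0.43 to 2.21 and 0.074 to 0.87. In 23 of 170 cases the sign of a member changed, each time with a value that did not pass. On leaving out a sample, *Il1b* ranged from -0.096 to 0.58, *Il18* from -0.26 to 0.19, *Il33* from -0.54 to 0.18, *Il1rn* from -0.32 to 0.26, *Il10* from -0.36 to 0.53 and *Tgfb1* from -0.088 to 0.15. Without fat-1 1 and WT 1, *Il18*, *Il33*, *Il1rn* and *Tgfb1* were at 0.034, 0.11, 0.081 and 0.051. *Il10* was at -4.2e-05 with the exact test and -0.13 with the leukocyte covariate. *Il1rn* was at 0.085 from the row with the symbol. *Tgfb1* was at 0.0027 with RLE scaling, 0.013 with upper quartile scaling, 0.013 with at least 10 counts in every sample, 0.0027 with DESeq2 and 0.0017 from the row. The causes were not tested.

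The labels do not say whether the replicate numbers pair the samples. The deviations from the genotype means correlated at 0.80 for number 1, -0.16 for number 2 and 0.13 for number 3, and not every sample correlated best with its own number. These correlations cannot decide whether the samples were paired, because cell type marker RNA also differed between samples within each genotype. With the replicate block 0 loci and 0 rows passed the adjusted threshold, and 376 loci and 784 rows the unadjusted one. Over the 20 relations to the leukocyte and epithelial levels, 3 passed the adjusted threshold by r, 2 with a pseudocount of 0.1 CPM, 2 from rows with the symbol for members and markers alike, and 3 with the fibroblast relations added. No shares of rows or single levels passed under any alternative. With 3 samples against 3, and 2 against 3 when a sample is left out, the exact permutation test cannot go under 0.1. The shares and single levels therefore could not pass the threshold of 0.05 in any case.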
